A study of Mus musculus with 62 samples.

Results

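The regions described here carried dimethylated histone H3 lysine 4 (H3K4me2) in all 4 mouse skeletal muscles profiled and acetylated histone H3 lysine 27 (H3K27ac) in none of them. The H3K4me2 peak lists of extensor digitorum longus (EDL), quadriceps (Quad), soleus (Sol) and diaphragm (Dia) were merged into 56759 regions. Of these, 22476 overlapped an H3K4me2 peak of all 4 muscles by at least 1 bp. The 4369 regions that also overlapped no H3K27ac peak of any of the 4 lists are called H3K4me2-only regions below, and they made up 19.4% of the regions with H3K4me2 in all 4 muscles (Wilson 95% interval 18.9 to 19.96). The remaining 18107 regions, with H3K27ac in at least 1 muscle, are called acetylated regions. Because the H3K4me2-only regions were chosen by peak calls in these 4 muscles, their H3K4me2 and H3K27ac there are given as a description with no test. With H3K27ac peaks limited to an adjusted p under 0.001 the rule would keep 7187 regions, and with H3K4me2 peaks so limited 2447.

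All animals were male mice, labelled C57BL/6 in every group. EDL, Quad, Sol and Dia came from sedentary wild-type mice, with each EDL, Sol and Dia sample pooled from 3 animals and each Quad sample from 1. Further Quad groups, 1 animal a sample, were Sed (wild type, sedentary), Ex (wild type, free access to running wheels from 8 weeks of age for 4 weeks, harvested hours after the last bout), Wt (sedentary wild-type littermates) and mTg (sedentary, Pgc1a expressed from the muscle creatine kinase promoter, which is active in muscle fibres). Each mark had 2 replicates a group, and 11 input, 4 MED1 and 2 NFAT libraries and a control Quad ATAC-seq list called on 3 pooled libraries were also used.

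Depth was 16.8 to 22.7 M tags in the 4 muscles' H3K4me2 libraries, 15.3 to 24.2 M in their H3K27ac libraries, and 11.7 to 23.7 M in the H3K27ac libraries of Sed, Ex, Wt and mTg. H3K27ac peaks were nearest to 11 to 14 of 14 skeletal muscle fibre genes (Acta1, Ckm, Mb and others) in each of the 8 groups, to 9 to 10 of 10 endothelial genes, to 7 to 9 of 10 haematopoietic genes and to 6 to 8 of 8 fibroblast genes. They were nearest to 6 to 7 of 7 smooth muscle and pericyte genes and 4 to 6 of 6 adipocyte genes. For satellite cell genes the range was 3 to 5 of 6, and for Schwann cell genes 1 to 4 of 6. In such bulk tissue, a mark in fewer cells and less of the mark per cell cannot be told apart. Intervals on shares cover counting error over regions only, since regions are not replicates.

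H3K4me2 is deposited by the MLL/COMPASS family of methyltransferases at promoters and enhancers, whether or not they are in use. H3K27ac is added by the acetyltransferases p300 and CBP and marks elements that are active, so an element with the methyl mark alone is commonly called primed. At developmental genes that are silent in a tissue, CpG-rich promoters often hold methylated lysine 4 together with the Polycomb mark H3K27me3, a state called bivalent, which was not profiled here. CTCF, the insulator protein, binds accessible sites that need not be acetylated.

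Sequences are shown here for 3 kinds of H3K4me2-only region, all on the plus strand of GRCm38.p6 (mm10) as RefSeq gives it. The first are CpG-rich centres without an ATAC peak, with 3 examples near homeobox and paired box genes of the nervous system. The windows are from the Pax2 (chr19:44756122-44756321), Dlx2 (chr2:71580893-71581092) and Gbx2 (chr1:89930468-89930667) regions, with every CG dinucleotide in capitals. They were picked after their values were seen.
Pax2: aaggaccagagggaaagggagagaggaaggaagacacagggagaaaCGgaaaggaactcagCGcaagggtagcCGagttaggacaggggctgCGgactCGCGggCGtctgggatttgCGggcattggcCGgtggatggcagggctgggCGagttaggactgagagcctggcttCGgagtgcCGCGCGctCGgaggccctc
Dlx2: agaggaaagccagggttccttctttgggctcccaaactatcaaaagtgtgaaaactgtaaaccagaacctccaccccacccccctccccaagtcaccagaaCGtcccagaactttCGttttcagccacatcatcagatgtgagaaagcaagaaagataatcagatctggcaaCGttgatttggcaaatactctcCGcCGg
Gbx2: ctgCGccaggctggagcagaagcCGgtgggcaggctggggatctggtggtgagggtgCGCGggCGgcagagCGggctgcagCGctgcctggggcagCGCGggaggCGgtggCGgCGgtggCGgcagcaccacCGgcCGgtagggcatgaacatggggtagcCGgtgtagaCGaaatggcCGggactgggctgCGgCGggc
These 200-bp windows held 15, 5 and 20 CG dinucleotides.

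The second kind had open chromatin. Windows of 200 bp around the ATAC peak centre are shown for regions that gained H3K27ac in mTg (Cadm1, chr9:47367322-47367521, Ptpn18, chr1:34459604-34459803, and Rgl3, chr9:21989412-21989611), for 2 regions with an H3K27ac peak in each of Sed, Ex, Wt and mTg (Polr2f, chr15:79141210-79141409, and Tesk2, chr4:116720715-116720914), and for the 2 with the highest ATAC scores (Kbtbd8, chr6:95117696-95117895, and Vrk1, chr12:106010082-106010281). Capitals mark matches to the words searched on either strand, which were TGANTCA (AP-1), AGGTCA (nuclear receptor half-site), CATTCC (TEAD), GGGCGG (GC box) and CCAAT among others.
Cadm1: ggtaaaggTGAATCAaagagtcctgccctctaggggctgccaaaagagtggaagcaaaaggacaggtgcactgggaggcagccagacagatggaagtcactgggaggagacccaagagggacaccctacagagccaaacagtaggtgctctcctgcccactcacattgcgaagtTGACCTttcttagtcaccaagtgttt
Ptpn18: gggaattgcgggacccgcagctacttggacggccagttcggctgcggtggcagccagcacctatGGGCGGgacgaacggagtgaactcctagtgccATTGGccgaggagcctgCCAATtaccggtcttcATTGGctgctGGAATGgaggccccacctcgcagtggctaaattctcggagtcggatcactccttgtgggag
Rgl3: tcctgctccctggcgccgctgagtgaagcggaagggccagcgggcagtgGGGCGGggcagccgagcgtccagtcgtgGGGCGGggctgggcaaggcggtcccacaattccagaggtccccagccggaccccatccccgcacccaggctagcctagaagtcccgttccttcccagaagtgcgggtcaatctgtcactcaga
Polr2f: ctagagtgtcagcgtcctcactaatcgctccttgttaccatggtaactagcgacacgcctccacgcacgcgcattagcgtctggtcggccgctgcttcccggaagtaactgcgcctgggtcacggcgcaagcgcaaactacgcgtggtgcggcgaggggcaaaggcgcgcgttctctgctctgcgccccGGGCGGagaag
Tesk2: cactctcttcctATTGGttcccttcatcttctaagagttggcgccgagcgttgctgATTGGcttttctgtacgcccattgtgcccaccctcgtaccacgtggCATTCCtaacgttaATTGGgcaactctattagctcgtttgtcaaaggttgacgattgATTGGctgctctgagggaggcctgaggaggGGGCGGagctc
Kbtbd8: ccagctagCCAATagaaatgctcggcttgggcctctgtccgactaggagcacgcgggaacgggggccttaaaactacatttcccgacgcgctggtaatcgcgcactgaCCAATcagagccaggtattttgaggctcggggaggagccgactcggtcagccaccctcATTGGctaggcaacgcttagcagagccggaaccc
Vrk1: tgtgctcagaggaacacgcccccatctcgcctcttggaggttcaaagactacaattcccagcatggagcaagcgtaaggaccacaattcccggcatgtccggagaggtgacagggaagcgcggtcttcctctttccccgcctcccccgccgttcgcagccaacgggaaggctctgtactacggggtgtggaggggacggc
The Cadm1 window, the only intergenic one of these 7, held an AP-1 word and a half-site, and its single CG dinucleotide contrasted with 10 to 25 in the other 6. GC or CCAAT boxes, the core elements of many housekeeping promoters, stood in 5 of those 6 windows, and the Vrk1 window held no match.

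The third kind held a CTCF word. The 60-bp stretches below are from the 3 intergenic examples with an ATAC peak and the highest H3K4me2 levels, near 4930469G21Rik (chr1:161195661-161195720), Slc17a7 (chr7:45162354-45162413) and Tiam1 (chr16:89774476-89774535), with the word in capitals. They too were picked after their values were seen.
4930469G21Rik: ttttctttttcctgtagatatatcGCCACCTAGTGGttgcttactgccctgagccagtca
Slc17a7: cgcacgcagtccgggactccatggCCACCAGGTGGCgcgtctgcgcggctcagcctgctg
Tiam1: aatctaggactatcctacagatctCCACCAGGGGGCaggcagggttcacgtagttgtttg
A word is a match of letters only, and no CTCF data were collected.

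H3K4me2-only regions were narrower, more often intergenic and more CpG-rich than acetylated regions. Their median width was 1704 bp (range 519 to 9786) against 3084 bp. By the authors' peak annotation, 16.7% (15.6 to 17.8) were promoter regions, 50.6% (49.1 to 52.1) intragenic and 32.7% (31.3 to 34.1) intergenic, against 15.4%, 65.8% and 18.9% of acetylated regions. A protein-coding RefSeq start lay inside 36.5% of them and inside 52.9% of acetylated regions. The median distance from the peak to its annotated gene start was 4775 bp, against 1299 bp. Over all merged regions the median width was 1410 bp, and 31.3% were intergenic and 7.22% promoter regions. Regions with H3K4me2 in 1 to 3 muscles had 1000 bp, 37.6% and 1.72%. A narrow width and a high intergenic share were thus not particular to this set.

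Base composition went the other way from gene proximity. The central 500 bp was CpG-rich (GC above 50% and an observed over expected CpG ratio above 0.6) in 42.1% (40.6 to 43.5) of H3K4me2-only regions and in 28.1% of acetylated regions. Over all merged regions the share was 13.4%. The median GC content of H3K4me2-only regions was 56.0% against 51.8% for acetylated regions, and the median CpG ratio 0.573 against 0.410. CpG-rich H3K4me2-only regions held a start in 58.7% of cases and were intragenic in 56.6% and intergenic in 16.6%. Those that were not CpG-rich held a start in 20.4% and were intragenic in 46.3% and intergenic in 44.4%. At this threshold, CpG-rich regions thus held a start more often and were less often intergenic.

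Most of the regions had no H3K27ac peak of the 4 muscles within 10000 bp. The rule itself excludes overlap, and no set of other regions was drawn to compare these distances. The median distance to the nearest H3K27ac peak of the 4 muscles was 22749 bp, 3077 regions (70.4%) had none within 10000 bp and 606 (13.9%) had none within 100000 bp. The rule sets the boundary at 1 bp, so its edge was sharp for few. Just inside it lay regions at Dnajc6 (37 bp from an H3K27ac peak), Mcu (40 bp), Syngr3 (75 bp), Ywhab (76 bp) and Eepd1 (127 bp). Just outside it lay regions at Bmp7 (1 bp of H3K27ac overlap), Hk3 (12 bp), Slc16a10 (54 bp), Mdfi (66 bp) and Cyp4a12a (76 bp), each with H3K27ac in 1 muscle. In all, 82 regions (1.88%) had an H3K27ac peak within 1000 bp.

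H3K4me2 over these regions was lower than over acetylated regions in each of the 8 libraries. On the log2 scale of the deposited tags, per kb of peak, the median level was 6.39 and 6.38 in the 2 EDL libraries, 5.68 and 5.81 in Quad, 5.93 and 6.00 in Sol, and 5.94 and 5.97 in Dia. Acetylated regions had medians of 7.15 and 7.12, 6.66 and 6.78, 6.68 and 6.72, and 6.83 and 6.81. The difference of medians, H3K4me2-only minus acetylated, was -0.76 (EDL), -0.97 (Quad), -0.74 (Sol) and -0.87 (Dia), each larger in size than the gap between the 2 replicates. Input differed in the same direction. Input medians were 3.51 (EDL), 3.50 (Quad), 3.53 (Sol) and 3.61 (Dia), against 3.98, 4.13, 3.96 and 4.27 at acetylated regions. Relative to input, the H3K4me2 medians were 2.89, 2.21, 2.42 and 2.31, against 3.13, 2.55, 2.70 and 2.48, so the regions remained lower but by much less.

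Ranked among all merged regions with a peak in the same list, the H3K4me2-only regions sat near the middle, with median percentiles of 56.7 and 57.7 in EDL, 48.2 and 49.7 in Quad, 47.3 and 48.6 in Sol, and 41.6 and 42.8 in Dia. These percentiles are relative to each muscle's own list and are not levels that compare across muscles.

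The highest H3K4me2 came from a mixed set of genes. The region 17112 bp upstream of Olfr1368 (chr13:21158067-21162139), an olfactory receptor gene, had levels of 8.37 and 8.38 in EDL, 7.67 and 7.92 in Quad, 8.14 and 7.97 in Sol, and 8.30 and 8.22 in Dia, at percentiles of 99.7 or above in all 8 libraries. Its input signal was also high, at percentiles of 96.4 to 99.1. Stmn1, the microtubule regulator stathmin, had a CpG-rich region at its start (chr4:134466911-134469911) at percentiles of 99.8 and 99.9 in EDL, 96.8 and 95.4 in Quad, 99.9 and 99.6 in Sol and 99.8 and 99.8 in Dia, with input between 50.7 and 80.0. The other 8 of the 10 highest lay at a (agouti), Btn1a1, 9330102E08Rik, Rimbp3, Cdc7 (a kinase that fires replication origins), AI506816, Kbtbd6 and Adam11. Input was high at several of these as well, with percentiles of 95.4 to 98.3 over the Kbtbd6 region, 88.7 to 97.7 over Adam11, 80.4 to 99.7 over Btn1a1 and 77.1 to 98.2 over 9330102E08Rik, and its part in their rank was not tested.

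The 5 widest regions were at 4930412O13Rik (9786 bp), Pcdh17 (9128 bp, a protocadherin of neurons), Osr2 (8686 bp, a zinc finger factor of limb and palate), Bcl11a (8303 bp, a repressor of blood and brain development) and Rap1b (8083 bp, a small GTPase). The regions were spread over 3718 nearest genes, of which 3194 had 1, 425 had 2 and 99 had 3 or more. Adgrl2, an adhesion receptor, had 7 of its 12 regions with H3K4me2 in all muscles in the set. Dctd, a deoxycytidylate deaminase, had 6 of 7, Irx3, an Iroquois homeobox factor, 5 of 7, and Jarid2, a cofactor of the Polycomb complex PRC2, 4 of 5. Sertad2 and Tenm3 each had 5 of 10, Map3k7 (the kinase TAK1) 4 of 7, Npas3, a neuronal bHLH factor, 4 of 5, and Btbd11 and Gm2109 each 4 of 4.

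H3K4me2-only regions took a high share near transcription factors of other lineages and neuronal genes, and a low share near genes of muscle contraction and metabolism. For comparison, 19.4% of all regions with H3K4me2 in every muscle were H3K4me2-only. Among regions nearest to neural and endoderm transcription factors the share was 40 of 55 (72.7%, 59.8 to 82.7), and among those nearest to neuronal synapse genes 16 of 28 (57.1%, 39.1 to 73.5). Ligands of the Wnt, BMP, FGF and hedgehog pathways had 26 of 72 (36.1%, 25.98 to 47.6), and limb and mesoderm factors 19 of 62 (30.6%, 20.6 to 43.0). At the other end, genes of contraction and calcium handling had 0 of 44, which allows up to 8.03%, skeletal muscle fibre markers 0 of 15 (up to 20.4%), and regulators of oxidative metabolism 1 of 68 (1.47%, 0.260 to 7.87), the 1 being near Esrrb. Ppargc1a, the gene that mTg mice overexpress, had 0 of 3.

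**Figure D1:**
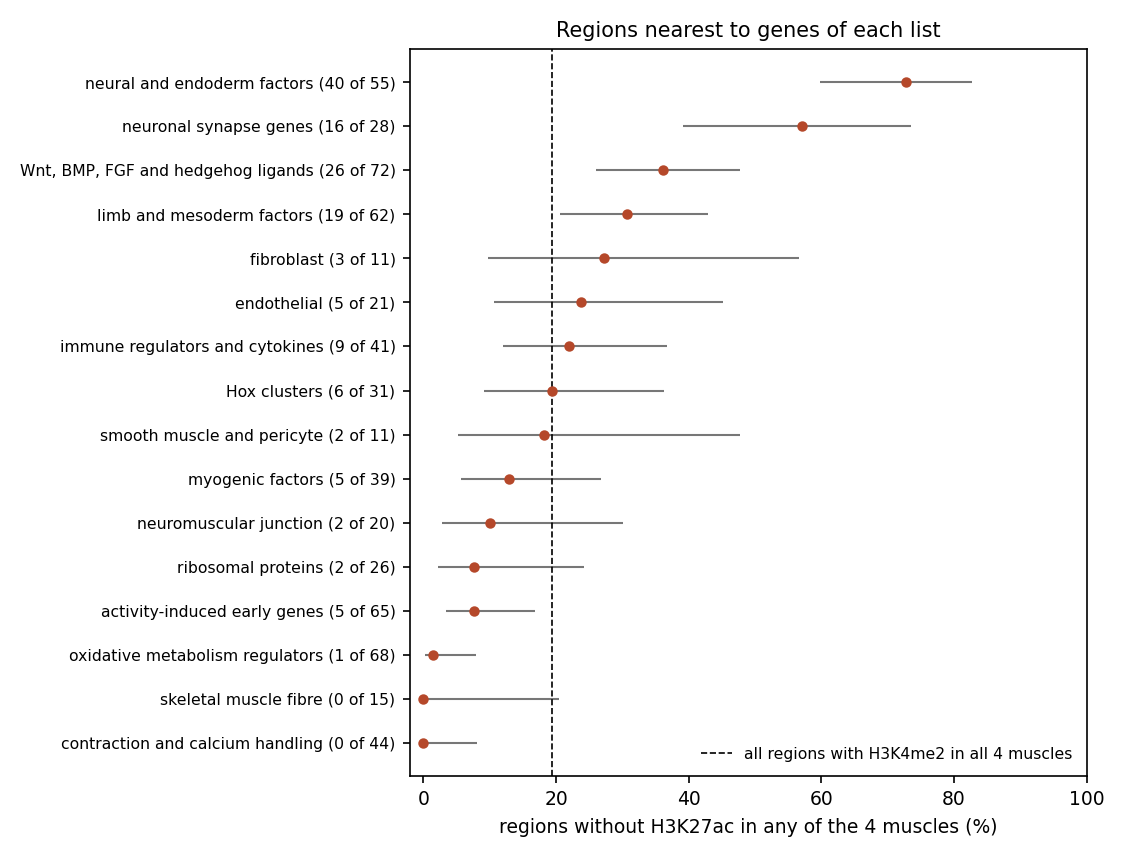
For each gene list, the point gives the percentage of regions with H3K4me2 in all 4 muscles that had no H3K27ac peak in any, the line its Wilson 95% interval and the dashed line the share of all such regions. Lists with under 10 regions are not drawn. The list of neural and endoderm factors is highest at 72.7%, and lists of contraction, fibre and oxidative genes lie at or near 0, against 19.4% of all such regions.

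The neural and endoderm list had 26 genes with an H3K4me2-only region among 32 with any region marked in all muscles, and for 20 of them every such region was H3K4me2-only. Those 20 included the homeobox genes Dlx1, Dlx2, Dlx5, Dlx6, En2, Gbx2, Otx1 and Nkx6-1, the proneural gene Neurog2, and Foxa1, Pax6 and Sox2. Others had acetylated regions too, such as Lhx2 and Atoh1 (each 2 of 3 H3K4me2-only), Otx2, Neurod1 and Gata4 (each 1 of 2) and Pax2 (3 of 6). Of the 40 regions, 30 had a CpG-rich centre and 17 held a start, but 5 had an ATAC peak and 39 had no H3K27ac peak in any of the 8 groups. Their median percentile of H3K4me2 was 41.7, against 48.5 over all H3K4me2-only regions.

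Otx1, a forebrain homeobox gene, had a promoter region (chr11:22000677-22004133) at percentiles of 80.2 and 84.8 in EDL, 75.04 and 70.3 in Quad, 66.3 and 67.4 in Sol, and 64.7 and 64.1 in Dia. The Pax2 region shown above, 1173 bp upstream of this kidney and brain factor's start (chr19:44754596-44757846), stood at 72.2 and 72.3 in EDL, 60.2 and 65.8 in Quad, 66.1 and 71.4 in Sol, and 48.6 and 52.4 in Dia. The Dlx2 region shown above (chr2:71580137-71581847), which lies 34276 bp from the Dlx2 start, stood at 66.5 and 69.3, 61.1 and 59.6, 63.1 and 53.2, and 61.4 and 53.1 in the same order. The region over the Gbx2 start (chr1:89928651-89932484) stood at 44.3 and 42.0, 47.9 and 57.2, 35.1 and 30.4, and 32.9 and 25.4. None of these 4 regions had an ATAC peak.

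Slc17a7, the vesicular glutamate transporter VGLUT1, had the highest level of the synapse list (chr7:45161633-45163040), with percentiles of 92.6 and 89.2 in EDL, 89.8 and 81.5 in Quad, 80.4 and 91.0 in Sol, and 91.1 and 91.8 in Dia. This region holds the CTCF word printed above. Cntnap2, Syt1 and Rbfox1 each had 2 regions, at mean percentiles between 15.3 and 68.7.

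Signalling ligands and patterning genes were represented by fewer regions. Of the 26 regions near Wnt, BMP, FGF and hedgehog ligands, 17 were CpG-rich, 5 had an ATAC peak and 22 had no H3K27ac in any group. Wnt10a (mean percentiles 69.1 and 68.5), Wnt3a (61.2 and 15.5), Wnt5b (60.6 and 60.6) and Wnt3 (56.1 and 7.69) had 2 each. The Hox clusters had 6 of 31 (19.4%, 9.19 to 36.3), a share equal to that over all regions, and all 6 were CpG-rich without an ATAC peak. They included the Hoxd1 promoter (51.6), a region in Hoxb9 (43.8), and regions in Hoxd13 (46.1) and Hoxd11 (38.9), posterior members that pattern the limb. Limb and mesoderm factors had 7 of 19 regions CpG-rich and 12 of 19 without H3K27ac in any group. Among them, Irx3 had 5, Lbx1, a factor of migrating muscle precursors, 2 (88.0 and 33.5) and Shox2 2 (45.4 and 38.9).

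Myogenic factors had 5 of 39 (12.8%, 5.60 to 26.7), namely 2 regions near Pax3, 2 near Eya1 and 1 near Myf6, all from 6112 to 201370 bp from the gene start. Activity-induced early genes had 5 of 65 (7.69%, 3.33 to 16.8), with Fosl1 (FRA1) highest at a mean percentile of 81.6. Klf6 had a distal region (chr13:6059346-6060765) with an H3K27ac peak in all of Sed, Ex, Wt and mTg. The neuromuscular junction genes had 2 of 20 (10%, 2.79 to 30.1), near Utrn (utrophin) and Chrna1, and ribosomal protein genes 2 of 26 (7.69%, 2.14 to 24.1).

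Genes of other cell types in muscle lay closer to the overall share, with wide intervals. Endothelial genes had 5 of 21 (23.8%, 10.6 to 45.1), 2 near Cdh5 and 1 each near Kdr, Emcn and Erg, at mean percentiles of 16.7 to 36.8. Immune regulators and cytokines had 9 of 41 (21.95%, 12.0 to 36.7), including the Cxcl10 promoter (72.1), Cd80, Tbx21 and Ccl5. Fibroblast genes had 3 of 11 and smooth muscle and pericyte genes 2 of 11. Schwann cell genes had 1 of 3, satellite cell genes 0 of 6, adipocyte genes 0 of 9 and haematopoietic genes 0 of 3, too few regions to place a share.

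Open chromatin was far less frequent at H3K4me2-only regions than at acetylated regions. An ATAC peak of control Quad overlapped 1318 of the H3K4me2-only regions (30.2%, 28.8 to 31.5), against 15183 (83.9%) of the acetylated regions. It overlapped 49.6% of all merged regions and 34.1% of those with H3K4me2 in 1 to 3 muscles, so a low share was not particular to this set. The nearest comparison for Quad, the 2364 regions without Quad H3K27ac but with it in another muscle, had an ATAC peak in 67.9% of cases. The median score of the overlapping ATAC peaks was 45 against 93.5. The ATAC list pools its replicates, so the shares could not be compared between animals.

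The gap held in every stratum of class, composition, width and level that was examined. An ATAC peak lay in 33.3%, 28.7% and 30.8% of promoter, intragenic and intergenic H3K4me2-only regions, against 92.8%, 84.5% and 74.2% of acetylated ones. The contrast was widest at CpG-rich centres, with 28.1% against 91.4%, and there even regions holding a start had 32.6% against 93.4%, and those without one 21.8% against 82.4%. Regions that were not CpG-rich had 34.1% against 91.3% with a start and 31.0% against 73.5% without. Among regions of 1000 to 2000 bp the shares were 28.1% against 65.0%, and among those of 2000 bp or more 33.5% against 88.3%.

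The ATAC share rose with H3K4me2. It was 8.85%, 17.2%, 38.6% and 71.8% from the lowest to the highest of 4 equal bins of the percentile scale, against 40.8%, 62.5%, 80.5% and 96.1% of acetylated regions. The highest ATAC scores were at Kbtbd8 (309, an adaptor of a ubiquitin ligase), Vrk1 (296.5, a nuclear kinase), Golph3l (288), Ccnf (282.5, cyclin F), Hspa13 (278.5), Kifc1 (277, a mitotic kinesin), Cdkn3 (275.5, a phosphatase of cyclin-dependent kinases) and Pcbp3 (265). All 8 lay at or near a gene start, and of these Kifc1, Cdkn3 and Pcbp3 had no H3K27ac peak in any group.

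**Figure D2:**
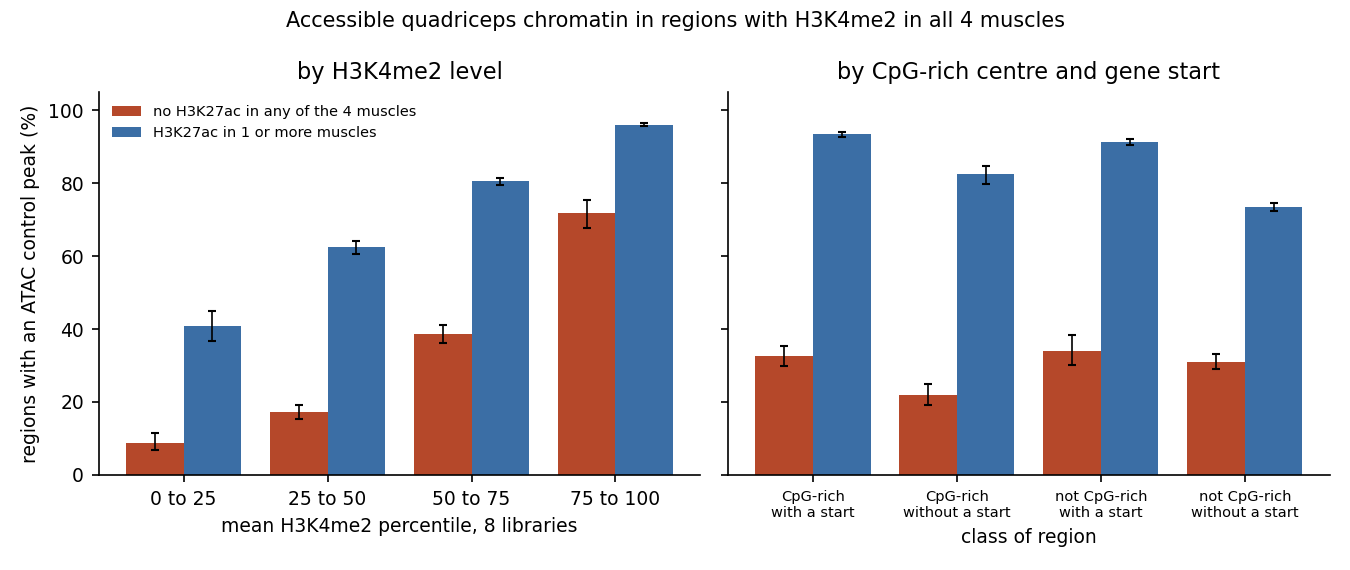
Bars give the percentage of H3K4me2-only and acetylated regions overlapping a control Quad ATAC peak, by mean H3K4me2 percentile on the left and by CpG-rich centre and gene start on the right, with Wilson 95% intervals. H3K4me2-only regions lie below acetylated regions throughout, from 8.85% to 71.8% across the percentile bins against 40.8% to 96.1%.

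In the 4 further Quad groups, which the rule did not use, most of the regions again had H3K4me2 and no H3K27ac. An H3K4me2 peak was present at 87.1% in Sed, 85.1% in Ex, 93.2% in the libraries labelled Wt and 81.7% in those labelled mTg, and at 2946 regions (67.4%) in all 4 groups. The mTg list was the smallest of these (27527 peaks, against 46944 in Wt) and its replicate 1 the shallowest library (6.41 M tags, with 13.3 to 21.6 M in the other 7), and their part in the lower share was not tested. An H3K27ac peak was present at 273 regions (6.25%, 5.57 to 7.005) in Sed, 431 (9.86%, 9.02 to 10.8) in Ex, 510 (11.7%, 10.8 to 12.7) in Wt and 262 (6.00%, 5.33 to 6.74) in mTg. Acetylated regions had one in 87.1%, 85.7%, 86.05% and 76.7%. The 2364 regions acetylated in another muscle but not Quad had one in 59.1%, 58.0%, 59.2% and 41.4%.

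Acetylation was thus infrequent in these regions, low where present and often found in 1 group. With peaks of adjusted p under 0.001 alone, the shares were 0.137%, 0.664%, 0.229% and 0.320%. No group had a peak at 3379 regions (77.3%), 1 group at 625 (14.3%), 2 at 265 (6.07%), 3 at 79 (1.81%) and all 4 at 21 (0.481%). The median percentile of the H3K27ac level at these peaks was 10.02 and 18.2 in the 2 Sed libraries, 21.01 and 22.2 in Ex, 12.5 and 12.2 in Wt and 13.8 and 11.1 in mTg, against 66.4 to 70.0 at acetylated regions in the same libraries. Peaks were more frequent where an ATAC peak was present (11.5%, 15.2%, 19.5% and 8.57% in Sed, Ex, Wt and mTg) than where none was (3.97%, 7.57%, 8.29% and 4.88%). In the highest of the 4 bins of H3K4me2 percentile they reached 15.8%, 22.4%, 22.8% and 10.6%.

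**Figure D3:**
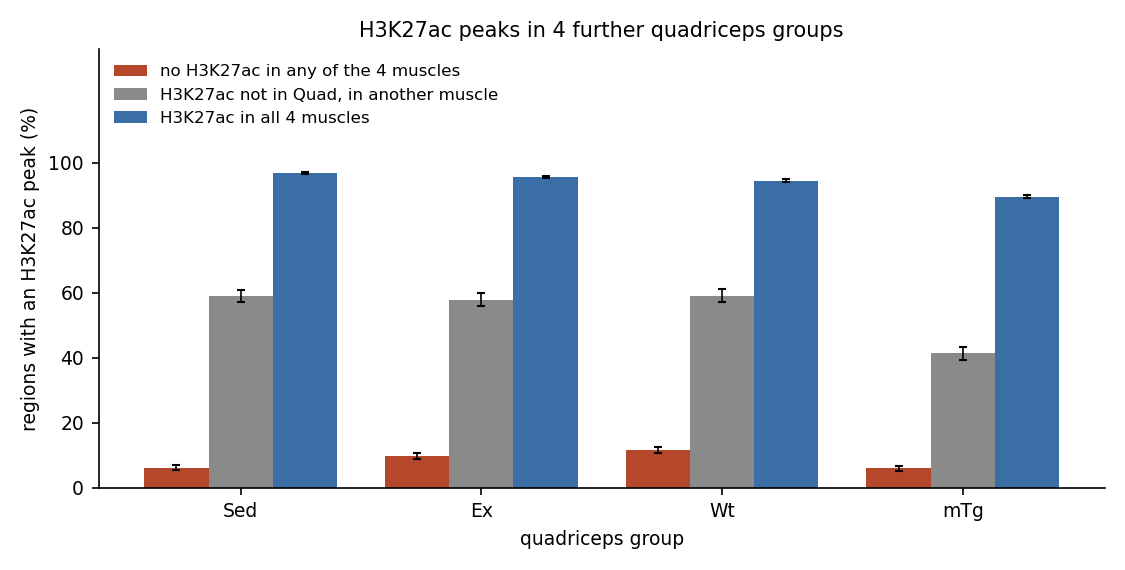
Bars give the percentage of regions with an H3K27ac peak in Sed, Ex, Wt and mTg Quad for 3 kinds of region marked by H3K4me2 in all 4 muscles, with Wilson 95% intervals. H3K4me2-only regions lie between 6.00% and 11.7%, regions acetylated in a muscle other than Quad between 41.4% and 59.2%, and regions acetylated in all 4 muscles above both.

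Gains were set against losses within each contrast. An H3K27ac peak in Ex and not in Sed was found at 314 H3K4me2-only regions (7.19%) and one in Sed and not in Ex at 156 (3.57%), while over all merged regions the shares were 8.04% and 10.9%, and over acetylated regions 6.04% and 7.40%. An H3K27ac peak in mTg and not in Wt was found at 166 (3.7995%) and one in Wt and not in mTg at 414 (9.48%), against 6.11% and 17.6% of all merged regions and 5.91% and 15.2% of acetylated regions. As shares of every region of a kind, gains in Ex lay below all merged regions and above acetylated regions, and gains in mTg lay below both. A gain, however, needs a control list without a peak. A Sed peak was present at 6.25% of H3K4me2-only regions, 51.5% of all merged regions and 87.1% of acetylated regions. For a Wt peak the shares were 11.7%, 57.2% and 86.05%. The gain shares therefore do not compare how often regions without a control peak gained one. The counts of losses are fixed in part by the rule, since few of these regions had a control peak to lose. List sizes moved with these counts: the H3K27ac lists held 34031 (Sed), 34572 (Ex), 49010 (Wt) and 36169 (mTg) peaks, and their part in the gains and losses was not tested. The lists pool replicates, so no gain from presence alone could be compared with replicate error.

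The 21 regions with H3K27ac in all 4 further groups were led in H3K4me2 by gene starts. Polr2f, a subunit shared by the RNA polymerases (chr15:79140011-79142815), had H3K27ac percentiles of 58.2 and 64.9 in Sed, 69.4 and 68.2 in Ex, 61.7 and 36.9 in Wt and 60.9 and 56.8 in mTg. Tesk2, a kinase that acts on cofilin (chr4:116719706-116722715), stood at 67.4 and 64.1, 48.4 and 54.4, 70.5 and 67.2, and 55.3 and 60.7. Both were thus marked at a middle level in all 8 H3K27ac libraries of these groups, although the lists of the 4 muscles held no peak there. Chst2, Rsrc1, Vash2, Kcnn3 (a calcium-activated potassium channel), Ggh and Fam46c followed, and all 8 had an ATAC peak.

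A peak in Ex but not Sed together with one in mTg but not Wt was seen at 20 regions (0.458%), against 0.788% of all merged regions and 0.718% of acetylated regions. Those with the highest H3K4me2 were at Chd3os, 9930104L06Rik, Cenpt (a centromere protein), Zfp296, Fut4, 6430531B16Rik, Usp14 (a deubiquitinase of the proteasome) and Tspan2. At 9930104L06Rik (chr4:124935865-124938287) the H3K27ac percentiles were 55.2 and 64.7 in Ex and 25.9 and 44.7 in mTg.

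The differential H3K27ac lists, in which the authors had selected regions that differed between groups, touched few H3K4me2-only regions. Exercise-modified regions hyperacetylated in Ex overlapped 8 (0.183%, 0.0928 to 0.361), a share near the 0.280% of all merged regions and 0.199% of acetylated regions. Hypoacetylated ones overlapped 1 (0.0229%), against 3.87% and 3.28%. PGC1α-modified regions hyperacetylated in mTg overlapped 29 (0.664%), against 1.99% of all merged and 2.37% of acetylated regions. Hypoacetylated ones overlapped 3 (0.0687%), against 1.04% and 0.596%. The authors drew these lists from called H3K27ac peaks, which few H3K4me2-only regions had. An Ex peak was present at 9.86% of H3K4me2-only, 48.6% of all merged and 85.7% of acetylated regions. For an mTg peak the shares were 6.00%, 45.7% and 76.7%. The overlap shares therefore do not compare how often regions with a peak changed. Of those hyperacetylated in mTg, 9 had an ATAC peak, 14 were CpG-rich, 7 were promoter regions and 28 of 29 had an mTg peak, 4 a Wt peak. Of those hyperacetylated in Ex, 3 had an ATAC peak, 6 were intragenic and 5 held a start.

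Within the lists nearly every region passed limma's test, as their selection implies (99.7% of the regions hyperacetylated in Ex and 99.7% of the hypoacetylated ones, 100% and 100% in mTg, adjusted p under 0.05 over each list). The H3K4me2-only members of each list passed as well, and since the authors chose the regions on these libraries this is no independent evidence of a change. In size, their median log2 difference was 0.55 in Ex, against 0.59 over the list, and 0.64 in mTg, against 0.74. They started lower: the members hyperacetylated in mTg had median levels of 4.65 in Wt and 5.25 in mTg, against 5.60 and 6.41 over the list.

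**Figure D4:**
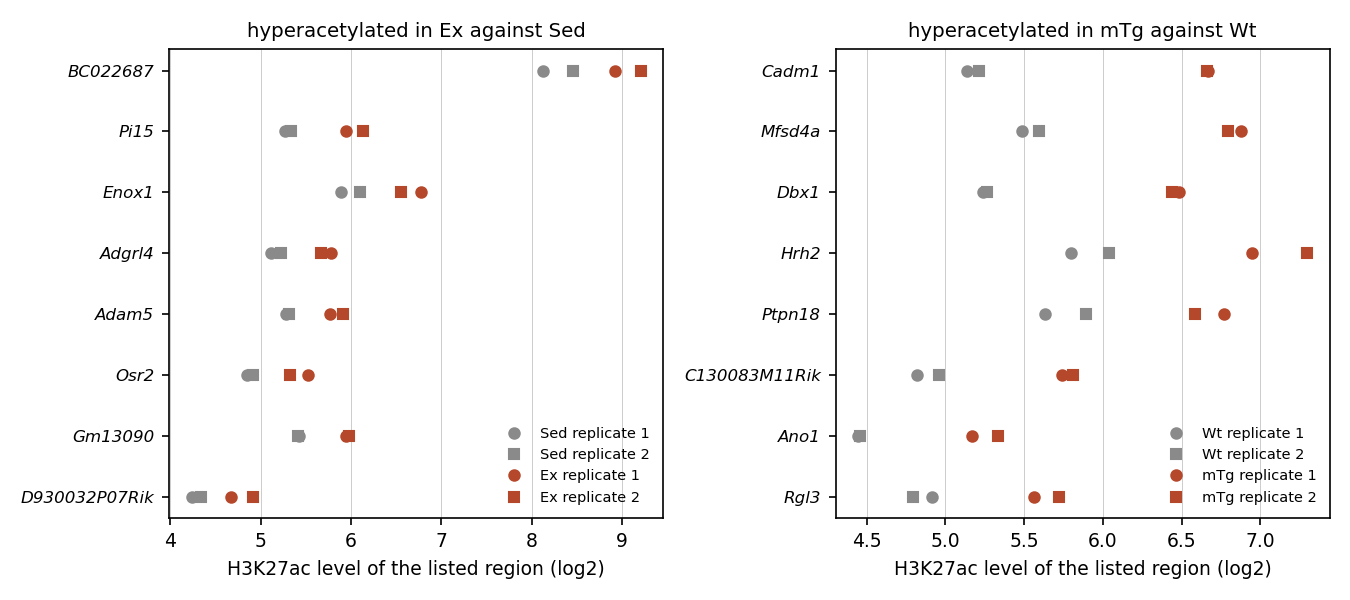
Points give the deposited log2 H3K27ac level of each library at the named H3K4me2-only regions of the lists hyperacetylated in Ex and in mTg. At every named region both treated libraries lie above both control libraries, by which the lists were selected, and the Cadm1 region shows the greatest separation.

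The PGC1α-modified regions gave the greater differences. At Cadm1, a cell adhesion molecule, an intergenic region 162236 bp upstream (chr9:47367052-47368703) had log2 H3K27ac levels of 5.14 and 5.21 in Wt and 6.67 and 6.66 in mTg. The difference of 1.49 (SE 0.12) had a limma adjusted p of 4.26e-10. Both mTg libraries stood above both Wt libraries, and replicates lay close together. Mfsd4a, a membrane transporter, had levels of 5.49 and 5.59 in Wt and 6.87 and 6.79 in mTg (difference 1.29, limma adjusted p = 3.12e-09) at its start (chr1:132066101-132068660).

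Dbx1, a homeobox factor of neural tube interneurons, was the nearest gene of a region at chr7:49521256-49524226 with levels of 5.24 and 5.26 in Wt and 6.48 and 6.44 in mTg (difference 1.21, limma adjusted p = 7.29e-09). Hrh2, the histamine H2 receptor, had 5.80 and 6.04 in Wt and 6.95 and 7.30 in mTg (difference 1.21, limma adjusted p = 3.64e-08) over its start at chr13:54191795-54193075. Next in size were Ptpn18, a tyrosine phosphatase, with 5.63 and 5.89 against 6.77 and 6.59, and C130083M11Rik with 4.82 and 4.96 against 5.74 and 5.81. The Ptpn18 region rose by this measure although the peak lists held it in Wt and not in mTg. Ano1, a calcium-activated chloride channel, had 4.44 and 4.46 against 5.17 and 5.33, and the Rgl3 promoter, of a Ral exchange factor, 4.92 and 4.80 against 5.56 and 5.72.

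At the exercise-modified regions differences were smaller and less certain. Pi15, a peptidase inhibitor, had levels of 5.27 and 5.34 in Sed and 5.95 and 6.13 in Ex at its start (chr1:17601634-17603638), a difference of 0.73 (SE 0.16, limma adjusted p = 9.34e-04). Enox1, a cell surface oxidase, had 5.89 and 6.10 in Sed and 6.77 and 6.55 in Ex (difference 0.66, limma adjusted p = 0.00106) over a CpG-rich start (chr14:77155682-77158948). Osr2 had 4.85 and 4.92 in Sed and 5.52 and 5.33 in Ex (difference 0.54, limma adjusted p = 0.00287) within its wide region (chr15:35292757-35301442).

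The list region at BC022687 had 8.13 and 8.45 in Sed and 8.92 and 9.21 in Ex, but it is 8122 bp wide and covers only 624 bp of the H3K4me2-only region, so most of that signal lay outside. Adgrl4, a receptor of endothelial cells, had 5.12 and 5.23 in Sed and 5.78 and 5.66 in Ex at a region 827022 bp from its start. Adam5, Gm13090 and D930032P07Rik completed the 8, with differences of 0.54, 0.54 and 0.50. Without Sed replicate 1 the Sed group holds 1 sample, so such a fit cannot show whether the calls of the 8 rest on that library. The Sed levels lay close together at Gm13090 (5.42 and 5.41) and Adam5 (5.28 and 5.32). They lay further apart at BC022687 (8.13 and 8.45).

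Hypoacetylated members were 4. Tkt, transketolase of the pentose phosphate pathway, had an intragenic region (chr14:30558724-30560589) with 6.46 and 6.17 in Sed and 5.71 and 5.54 in Ex, where the level fell by 0.69 (SE 0.21, limma adjusted p = 0.00188). Its highest adjusted p without 1 library was 0.0635. In mTg, levels fell at regions near Tiam1, a Rac exchange factor (5.76 and 5.61 in Wt, 5.18 and 5.19 in mTg), Tshz3, a zinc finger factor (4.09 and 4.15, 3.64 and 3.68), and 2210417A02Rik (4.29 and 4.31, 3.92 and 3.94), with limma adjusted p of 9.93e-04, 0.0017 and 0.00673. The list region at Tiam1 is 2686 bp wide and covers only 405 bp of the H3K4me2-only region (chr16:89896548-89898612), so most of the measured stretch lay outside. That H3K4me2-only region is not the one whose CTCF word is printed above.

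Binding of MED1, a Mediator subunit found at active enhancers, was rare. A MED1 peak of any muscle overlapped 87 H3K4me2-only regions (1.99%), against 18.7% of acetylated regions and 7.02% of all merged regions. The share was 5.59% of the acetylated regions with H3K27ac in 1 to 3 muscles. It was 1.496% of regions with H3K4me2 in 1 to 3 muscles, so a low share was not particular to this set. By muscle the shares of H3K4me2-only regions were 0.298% (EDL), 0.801% (Quad), 1.14% (Sol) and 0.343% (Dia), against 2.08%, 8.13%, 9.59% and 7.09% of acetylated regions. NFAT, the calcineurin-regulated factor of slow fibres, had a Sol peak at 82 H3K4me2-only regions (1.88%), against 4.07% of acetylated and 2.47% of all merged regions. A Quad NFAT peak lay at 1 (0.0229%), against 0.0663% and 0.0370%. Each of these factor lists came from 1 library of pooled animals.

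The central 500 bp of each region was searched for short words on both strands. GGGCGG was found in 50.1% of H3K4me2-only regions, 34.8% of acetylated regions and 22.6% of all merged regions, but within CpG-rich centres in 75.8% against 75.6% of acetylated regions, and outside them in 31.5% against 18.9%. CAGCTG, the E-box of myogenic bHLH factors, was found in 32.0%, 27.3% and 31.3%. AGGTCA was in 20.2%, 25.6% and 28.2%, TGANTCA in 9.52%, 12.1% and 15.02%, and the MEF2 word in 4.10%, 6.82% and 9.17%. The extended TCAAGGTCA of oestrogen-related receptors, whose matches are included in those of AGGTCA, was in 0.572% against 0.828% of acetylated regions. CATTCC was in 21.5% against 22.7%, CCAAT in 40.4% against 42.8%, AACCACA (RUNX) in 6.23% against 7.97%, and the REST word in 0.206% against 0.0828%.

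The CTCF word showed the widest ratio. It was present in 124 H3K4me2-only regions (2.84%), in 101 acetylated regions (0.558%) and in 1.19% of all merged regions. It was concentrated in narrow regions, with 30 of 176 under 1000 bp (17.0%, 12.2 to 23.3), 67 of 1399 from 1000 to under 1500 bp (4.79%), 20 of 1260 from 1500 to under 2000 bp (1.59%), 0.614% from 2000 to under 3000 bp and 0 of 394 above, which allows up to 0.966%. Acetylated regions of the same widths had 9.43%, 1.88%, 0.618%, 0.558% and 0.338%, so their share was lower in each bin below 2000 bp, with overlapping intervals under 1000 bp and from 1500 to under 2000 bp.

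Regions with the CTCF word differed from the rest of the set in other ways. Of the 124, 78 (62.9%) were intergenic, 9 (7.26%) held a start and 63 (50.8%, 42.1 to 59.4) had an ATAC peak. Their median width was 1198 bp against 1720 bp for those without the word, and their median H3K4me2 percentile 57.0 against 47.9.

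**Figure D5:**
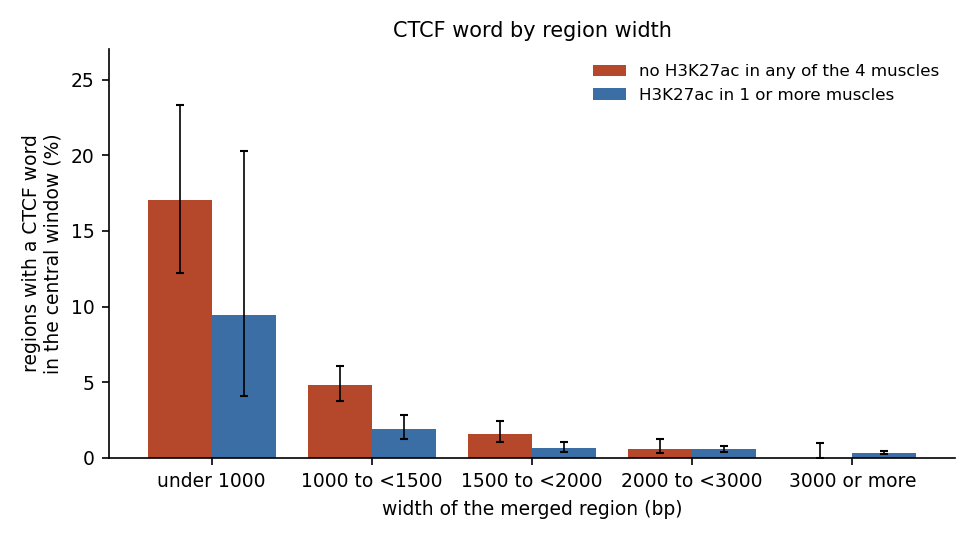
Bars give the percentage of regions with the CTCF word in the central 500 bp by width of the merged region, with Wilson 95% intervals, for H3K4me2-only and acetylated regions. The share falls from 17.0% to 0% with width in H3K4me2-only regions and from 9.43% to 0.338% in acetylated regions, and the intervals under 1000 bp and from 1500 to under 2000 bp overlap.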

How the data were processed

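H3K4me2 and H3K27ac ChIP-seq peak lists of 8 groups of mouse skeletal muscle, 2 replicates each, were analysed with input, MED1, NFAT and control ATAC-seq lists, all on mm10. The authors called peaks with HOMER per group from both replicates against input, annotated them to promoter (1000 bp before to 100 bp after a start), intragenic or intergenic class and nearest gene, and deposited a log2 tag value per library, here read as regularized log values that were normalized within each list. Adjusted p-values against input were also deposited, used here as thresholds, and the authors' MED1, NFAT and ATAC lists carry a peak score and, for ATAC, a normalized tag signal. Columns of fold changes and p-values of the authors' own contrasts were not used, nor were 5 lists on another build.

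H3K4me2 peaks of EDL, Quad, Sol and Dia were merged, and class and gene came from each region's peak of highest score. The level of a region was log2 of the summed linear tags per kb, and its percentile was taken among merged regions in the same list, averaged over the 8 H3K4me2 libraries. Shares carry Wilson 95% intervals, for counting error only. The central 500 bp was called CpG-rich at GC above 50% and observed over expected CpG above 0.6. Differential lists were fitted whole with limma 3.58.1 (R 4.3.3, 2 against 2 libraries, two-sided, Benjamini-Hochberg threshold 0.05), after the fit had been tested on simulated data. Same-numbered libraries deviated with correlations of 0.144, 0.106, -0.0386 and -0.242 in the 4 lists, and with 2 pairs a list the numbers were not taken to pair samples.

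The regions and gene lists were chosen with earlier results of these data known. Regions named were those of highest H3K4me2 percentile, the widest, those with the largest differences in the differential lists, those of the genes with most regions, up to 4 genes of each list, those with H3K27ac in all of or gained in both contrasts of the further Quad groups, and those of highest ATAC score. Alternatives covered peak thresholds, overlap, muscles and libraries left out, level per region, normalization and the replicate block.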

Additional observations from a re-analysis of the deposited data

How the results depend on the processing

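The number and class of the regions moved with the peak thresholds. With H3K4me2 peaks limited to adjusted p under 0.001 the rule kept 2447 regions, of which 21.5% were promoter regions and 37.4% had an ATAC peak. With H3K27ac peaks so limited it kept 7187, with 15.3% and 41.6%. Few H3K27ac peaks of the further Quad groups at these regions were strong: at adjusted p under 0.001 the shares were 0.137% (Sed), 0.664% (Ex), 0.229% (Wt) and 0.320% (mTg), so the shares given in the report rest on weak peaks. A 1000-bp margin and a larger required overlap moved no share they were run on beyond its interval and no count by over 1.5 times. Leaving out the lists of 1 muscle was run on the number of regions only, which came to 4915 to 5618.

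Per region instead of per kb, the H3K4me2 difference from acetylated regions was -1.73 (EDL), -1.99 (Quad), -1.77 (Sol) and -1.85 (Dia). With 1 library left out, the difference per kb was -0.76 to -0.75 (EDL), -0.98 to -0.96 (Quad), -0.75 to -0.72 (Sol) and -0.89 to -0.84 (Dia).

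Within the differential lists, quantile normalization left limma calls at 0 of 382 (3 at an unadjusted p under 0.05) and 0 of 2280 (19) in Ex, and at 44 of 1828 and 9 of 844 in mTg. Each list holds regions that moved one way, so equalizing the libraries removes that shift by construction. With 1 library left out, the lone sample of a group is assumed to vary like the others, and calls ranged from 0 (without Sed replicate 1) through 205 (without Sed replicate 2) to 381 for regions hyperacetylated in Ex. They ranged from 1191 (without Ex replicate 2) to 2245 for hypoacetylated ones, and in mTg from 1798 to 1812 and from 820 to 839. With the replicate block the calls were 382, 2280, 1828 and 844, and no other call changed. Of 74 alternatives, 23 moved a value as given here. Only the differences in H3K4me2 level have a direction that could change, and none of them did.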
